A study of Ambystoma mexicanum with 12 samples.

Results

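EHF and FGFBP1 are a pair of genes best known from epithelia, and their RNA was followed here through the healing of full-thickness skin wounds in the axolotl, a salamander that restores its skin without a scar. The genes were selected on their low signal at 21 days post injury (dpi), and EHF also on its low signal at 14 dpi, in an earlier analysis of the same arrays. Their differences from uninjured skin at those times are therefore given as a description, without a test. Every probe set annotated to either symbol was taken, which gave 2 probe sets, 1 for EHF (axo12983-r_at) and 1 for FGFBP1 (axo10822-f_at), of 20035 on the array once controls were left out. A gene symbol was available for 10951 of those probe sets, covering 8639 genes.

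EHF is an ETS-family transcription factor. In mammals it is made in skin, gut, airway and gland epithelium, where it takes part in the differentiation programme together with relatives such as ELF3. FGFBP1 is a secreted carrier protein that binds fibroblast growth factors (FGFs) held on heparan sulphate in the extracellular matrix and brings them to their receptors, and in mammals keratinocytes are among its sources. Both have been studied in squamous epithelium, FGFBP1 also in wounded mouse skin. These roles are known from mammals and were not measured here.

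The samples were skin biopsies from white adult axolotls, in 4 groups of 3 arrays: uninjured skin and wounds at 2, 14 and 21 dpi. The paper describes full-thickness punches of 2 mm from the body skin of adult males 2 years old. Such a biopsy pools epidermis, dermis, vessels and blood with any muscle beneath, so each value is an average over all of them. The records differ in places. For the group taken as 14 dpi from its title and source, another label says 7 days. The treatment text of the labels describes a spinal cord experiment in which 10 animals were pooled per array, while the paper names 3 separate animals. An array may thus stand for 1 animal or for several. Whether the same animals gave samples to more than 1 group is not settled by these sources. The p-values measure the spread between arrays, which may be technical. The values were log2 signals that the authors had made comparable between arrays by robust multi-array average (RMA), in which a rise of 1 unit is a 2-fold rise. Array medians lay between 5.52 and 5.61 and upper quartiles between 7.65 and 7.76. No detection call was made. By their mean over the 4 groups, 25 of 35 measured epithelial junction genes lay above the highest array median. So did 29 of 33 skeletal muscle and 17 of 19 macrophage markers. Uninjured means were 13.1 for EPCAM and 11.1 for CDH1, an adhesion molecule and a cadherin that mark epithelial cells. In the other epithelial lists 8 of 14 basal keratinocyte, 6 of 7 suprabasal and 8 of 12 gland genes lay above that median, and 12 of 21 epithelial transcription factors. A median splits the probe sets of an array evenly, and 8 of 14 and 12 of 21 are near such a split. KRT5, KRT14 and KRT15, keratins of basal keratinocytes, had no probe set under those symbols.

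EHF signal was high in uninjured skin and lower in each later group. On the log2 scale it read 9.51, 9.57 and 9.01 in uninjured replicates 1 to 3, 7.80, 8.25 and 9.37 at 2 dpi, 7.37, 5.82 and 6.81 at 14 dpi, and 5.64, 5.44 and 5.12 at 21 dpi. The group means were 9.36 ± 0.31 in uninjured skin, 8.48 ± 0.81 at 2 dpi, 6.67 ± 0.78 at 14 dpi and 5.40 ± 0.26 at 21 dpi (SD, n = 3 each). One array at 2 dpi, replicate 3, sat among the uninjured arrays, whereas all arrays at 14 and 21 dpi lay below every array of uninjured skin and of 2 dpi. The spread between arrays was narrow at both ends of the series and wide in the middle of it. Ranked within its own array, EHF stood on average at percentile 89.1 of all probe sets in uninjured skin, 81.6 at 2 dpi, 63.2 at 14 dpi and 47.4 at 21 dpi. A gene in the upper part of the array thus came to lie near the array's median, where a fold change can be held down by background that was not separated from signal here.

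FGFBP1 followed the same order of groups at a higher signal, although signals of different probe sets are not comparable as amounts. It read 12.07, 11.24 and 11.29 in uninjured replicates 1 to 3, 11.09, 11.47 and 10.59 at 2 dpi, 9.96, 7.98 and 9.28 at 14 dpi, and 8.43, 7.20 and 7.85 at 21 dpi. The group means were 11.53 ± 0.47 in uninjured skin, 11.05 ± 0.44 at 2 dpi, 9.07 ± 1.01 at 14 dpi and 7.83 ± 0.62 at 21 dpi (SD, n = 3 each). The arrays of 2 dpi and uninjured skin overlapped, and so did those of 21 and 14 dpi, while no array of 14 or 21 dpi reached the lowest array of 2 dpi. Within its array FGFBP1 stood on average at percentile 96.9 in uninjured skin, 95.7 at 2 dpi, 86.3 at 14 dpi and 76.3 at 21 dpi. FGFBP1 therefore stayed in the upper part of the array even at its lowest.

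**Figure D1:**
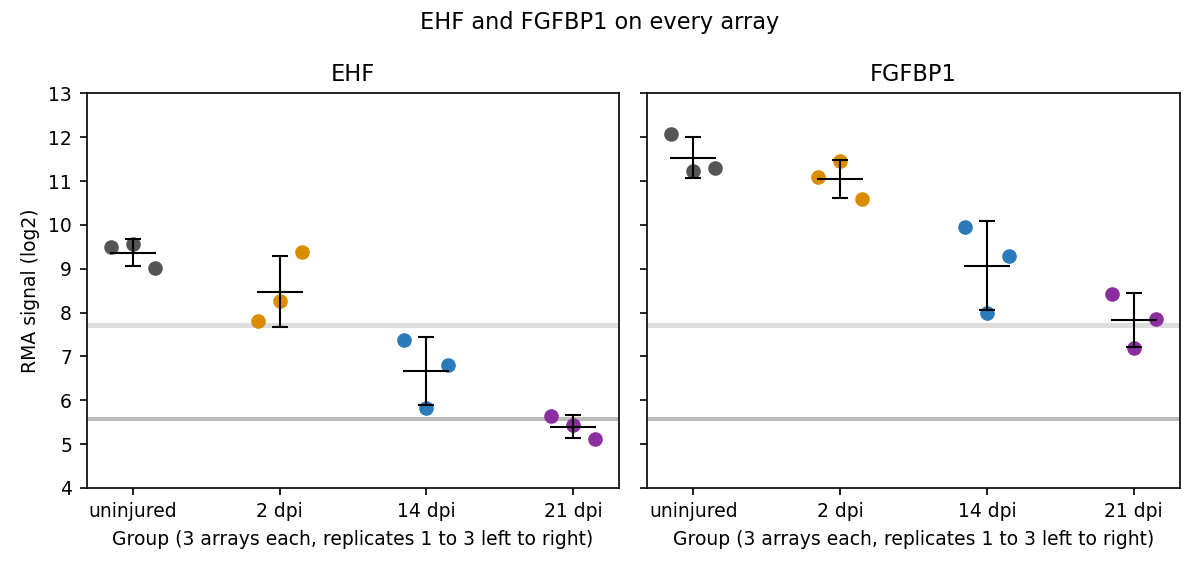
RMA signal (log2) of EHF (left) and FGFBP1 (right) on each of the 12 arrays, by group, with replicates 1 to 3 from left to right. Horizontal ticks are group means and bars are SDs (n = 3); the dark grey band is the range of array medians (5.52 to 5.61) and the light grey band that of upper quartiles (7.65 to 7.76). EHF reaches the median band at 21 dpi, while FGFBP1 ends near the upper quartile.

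At 21 dpi EHF was lower than in uninjured skin by 3.96 on the log2 scale (SE 0.43), or 15.6-fold, and FGFBP1 by 3.71 (SE 0.48), or 13.1-fold. In both genes the highest wound array lay far under the lowest uninjured array, by 3.37 for EHF and by 2.80 for FGFBP1. In whole biopsies fewer cells of a type and less RNA per cell cannot be told apart. At 14 dpi the difference from uninjured skin was already -2.70 for EHF (SE 0.43), 6.48-fold lower, and -2.46 for FGFBP1 (SE 0.48), 5.50-fold lower. Again no wound array overlapped with uninjured skin. The share of all probe sets without overlap was not counted, here or in the comparisons below, so a lack of overlap is a description only. Among all 20035 probe sets ordered by their difference at 21 dpi, EHF had the 4th and FGFBP1 the 8th lowest value, and at 14 dpi they stood at place 41 and place 53. The ranks at 21 dpi, and for EHF also at 14 dpi, come from the contrasts that chose the genes. For scale, limma, a linear model fitted to all probe sets together, called 5.99% of probe sets lower at 21 dpi and 2.56% lower at 14 dpi at an adjusted p under 0.05, and the median difference of all probe sets was -0.01 and 0.01 at those times.

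Counting 1 probe set per gene, the only gene with a symbol and a lower value than EHF at 21 dpi was PRG4, which encodes the lubricating proteoglycan lubricin. PRG4 differed from uninjured skin by -5.02 at 21 dpi (SE 1.05). Unlike EHF and FGFBP1, PRG4 had a higher mean at 2 dpi, 13.6, against 10.7 in uninjured skin. After EHF and FGFBP1 came SQLE, an enzyme of cholesterol synthesis, with a difference of -3.46 at 21 dpi (SE 0.66). SQLE, too, had a higher mean at 2 dpi, by 0.58, before it was lower at the later times. Lower means at every wound time were not particular to EHF and FGFBP1. Among the 14 genes with the lowest values at 21 dpi, PHLDA2, EGR1, EREG and PTGES were also lower at 2, 14 and 21 dpi. PHLDA2 differed by -0.78, -2.93 and -3.00 at those times, and PTGES by -2.41, -3.04 and -2.43. The rest of the 14, besides EHF and FGFBP1, had a higher mean at 2 dpi.

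The values at 2 dpi had no part in choosing the genes, although the uninjured arrays did. EHF differed by -0.89 at 2 dpi against uninjured skin (SE 0.43, 95% interval -1.85 to 0.07), which did not pass the test (limma, adjusted p = 0.245). The same difference was -1.16 with an adjusted p of 0.0488 when arrays were weighted by their quality, the single alternative that called it, in a range of 0.0488 to 0.541 over all of them. FGFBP1 differed by -0.49 at 2 dpi (SE 0.48, 95% interval -1.56 to 0.59, limma adjusted p = 0.609), and no alternative called it. Neither interval excludes a log2 difference of -1. With the mean of skeletal muscle markers as a covariate EHF differed by -1.49 at 2 dpi, and with the mean of epithelial junction genes as a covariate FGFBP1 differed by -1.05, neither past the test. Over all probe sets, 3.86% were called lower and 5.42% higher at 2 dpi, with a median difference of 0.02.

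Between 2 and 14 dpi the signal of FGFBP1 fell. The difference at 14 dpi against 2 dpi was -1.97 (SE 0.48, 95% interval -3.05 to -0.90), or 3.93-fold lower, with no overlap between arrays (limma, adjusted p = 0.0349). Of all probe sets 3.62% were called lower in that comparison. The difference itself uses no array of the contrast that chose FGFBP1, but its SE and p-value draw on the spread of all 12 arrays. With only the compared groups in the fit, FGFBP1 was not called (limma, adjusted p = 0.106). The call is thin. It was lost without uninjured replicate 2 (adjusted p = 0.0504), without 2 dpi replicate 1 (0.0776), replicate 2 (0.12) or replicate 3 (0.0567), without 14 dpi replicate 2 (0.0961) or replicate 3 (0.0705), and without 21 dpi replicate 3 (0.0592), while the difference stayed between -2.42 and -1.43. Over all alternatives the adjusted p ranged from 0.0168 to 0.233. EHF, whose 14 dpi arrays had a part in its choice, was lower by 1.81 at 14 dpi than at 2 dpi (SE 0.43), also without overlap.

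From 14 to 21 dpi both genes had a further lower mean of like size. At 21 dpi against 14 dpi EHF differed by -1.27 (SE 0.43) with a gap of 0.18 between the nearest arrays, and FGFBP1 by -1.25 (SE 0.48) with overlapping arrays. Much of the spread at 14 dpi came from replicate 2, the lowest array of its group for both genes. That array also had the lowest mean of epithelial junction genes and the highest mean of skeletal muscle markers of the 14 dpi arrays. The reverse was seen at 21 dpi. There replicate 1 had the lowest junction mean and the highest muscle mean of its group, with the highest EHF and FGFBP1. Without a single array in turn, the difference at 21 dpi against 14 dpi ranged from -1.69 to -0.92 for EHF and from -1.79 to -0.80 for FGFBP1.

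The profiles of both genes over the 12 arrays were alike, with Pearson's r = 0.93 and Spearman's rho = 0.88. Since both were chosen for a low signal at 21 dpi, part of that likeness is built in. After each group's mean was subtracted, r was 0.39. The arrays in which one gene was high for its group were thus only loosely those in which the other was. At 2 dpi EHF was highest in replicate 3, whereas FGFBP1 was lowest in that replicate.

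Other genes resembled each member more closely than they resembled each other. Of 8638 other genes, FGFBP1 ranked 31st in likeness to EHF, and EHF ranked 25th in likeness to FGFBP1. The 10 genes most like EHF over the 12 arrays, by Pearson's r, were GHITM, MRPS27, HSPD1, GFPT2, CYCS, DNAJC2, RAN, LUC7L2, CYC1 and VRK1, with r between 0.95 and 0.98. HSPD1 is a mitochondrial chaperonin, GFPT2 an enzyme of hexosamine synthesis and RAN a GTPase of nuclear transport. The 10 most like FGFBP1 were PRMT5, LUC7L2, KIF23, TRAP1, PTCD3, SNRPA, FICD, IFRD2, BMS1 and MAD2L1, with r between 0.95 and 0.97. PRMT5 is an arginine methyltransferase, SNRPA a splicing protein and KIF23 a kinesin of cell division. Only LUC7L2 stood on both lists. By Spearman's rho in place of Pearson's r, 3 of the 10 remained among the top 10 for each gene. At 21 dpi against uninjured skin, GFPT2 differed by -2.06 (SE 0.32), KIF23 by -1.72 (SE 0.28) and RAN by -0.40 (SE 0.10). None of these genes moved as far as EHF or FGFBP1, which follows largely from the choice of EHF and FGFBP1 for their low signal at 21 dpi.

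**Figure D2:**
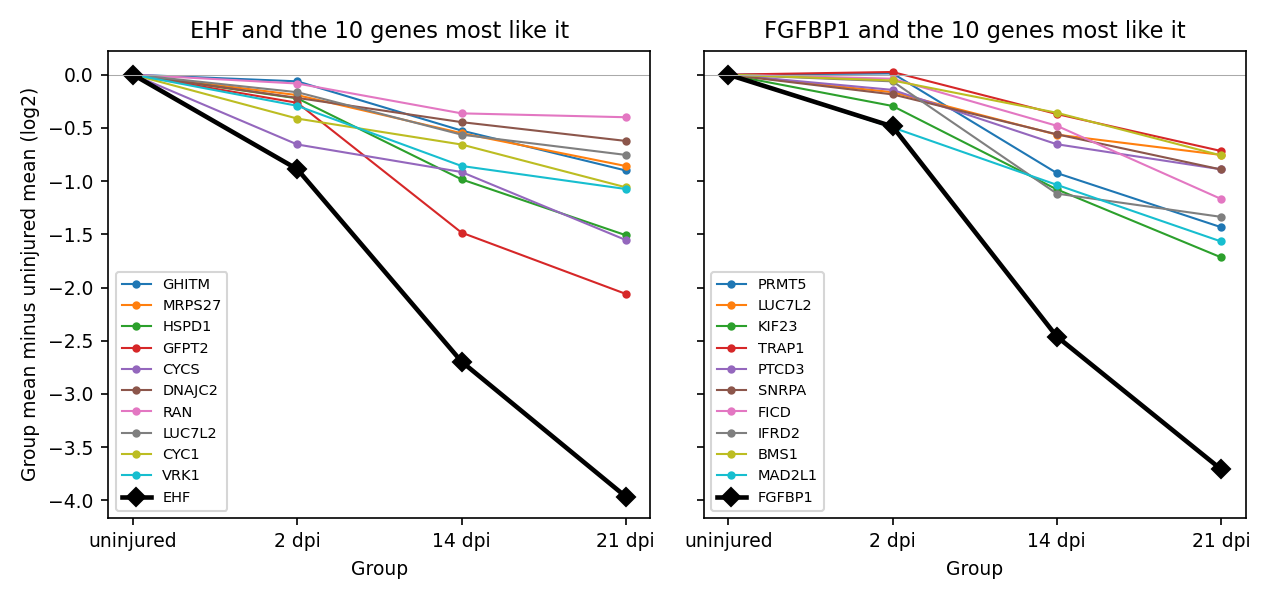
Group means minus the uninjured mean (log2) for EHF (left) and FGFBP1 (right), in black, and for the 10 genes with the highest Pearson's r to each over the 12 arrays, in colour. The neighbours in likeness go the same way in smaller steps, down to -2.06 for GFPT2 at 21 dpi, against -3.96 for EHF. EHF and FGFBP1 were chosen on their low values at 21 dpi, so their larger steps are largely built in.

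EHF was set beside the rest of its own transcription factor family. Of 26 other ETS genes listed, 14 were measured. At 21 dpi against uninjured skin, 1 was called higher and 0 lower (limma; 2 and 4 at an unadjusted p under 0.05), with a median difference of -0.10. Over all probe sets 6.62% were called higher and 5.99% lower, so a count of 1 is near that share. ETS1, a factor of lymphoid and endothelial cells in mammals, rose by 0.69 (SE 0.17, adjusted p = 0.0268), a call that was lost without uninjured replicate 2 or 3 or without 21 dpi replicate 2 or 3 in turn (adjusted p up to 0.0967, and from 7.33e-04 to 0.0967 over all alternatives). The closest relative of EHF that was measured, ELF3, had means of 4.46 ± 0.21 at 21 dpi and 5.39 ± 0.30 in uninjured skin (SD, n = 3 each). Its difference of -0.93 (SE 0.32) did not pass the test (adjusted p = 0.0848). ELF3 and EHF had r = 0.81 over the 12 arrays, part of which is built in by the choice of EHF. The uninjured mean of ELF3 already lay below every array's median, whereas that of EHF lay above every upper quartile.

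The mean of the 14 ETS genes per array had r = 0.57 with EHF over the 12 arrays, and r = 0.51 after group means were subtracted. At 2 dpi 2 of the 14 genes rose and 0 fell (3 and 0 at an unadjusted p under 0.05), with a median of 0.17, beside 5.42% and 3.86% of all probe sets. The genes were SPI1, the factor of macrophages and granulocytes, with a difference of 1.71 (SE 0.30, adjusted p = 0.00677), and ETS2, a growth factor-responsive member, with 1.41 (SE 0.34, adjusted p = 0.0278). The call of SPI1 was lost with only the compared groups in the fit or with the skeletal muscle covariate (adjusted p up to 0.151), and that of ETS2 without uninjured replicate 1 or 3, or without 2 dpi replicate 2 or 3 (adjusted p up to 0.0894, and from 0.00779 to 0.401 over all alternatives). At 14 dpi 0 of 14 were called in either direction (limma; 1 and 4 at an unadjusted p under 0.05), with a median of -0.05, beside all probe sets called higher, 4.56%, and lower, 2.56%.

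Transcription factors of epithelial differentiation were counted next. Of 38 listed besides EHF, 21 were measured, and at 21 dpi 0 were called higher and 2 lower (0 and 3 at an unadjusted p under 0.05), with a median of -0.22, beside 6.62% of all probe sets called higher and 5.99% lower. GRHL3, which drives barrier formation in mouse epidermis, averaged 9.16 at 21 dpi and 9.92 in uninjured skin, a fall of 0.76 (SE 0.17, adjusted p = 0.0159). KLF3 fell by 0.72 (SE 0.21, adjusted p = 0.0477). Both are small beside EHF, which was chosen for its low signal. The call of GRHL3 was lost without uninjured replicate 1 or 21 dpi replicate 1 or 3 (adjusted p up to 0.0635), and that of KLF3 without any of 8 single arrays (adjusted p up to 0.143): uninjured replicates 1 and 2, 2 dpi replicates 2 and 3, 14 dpi replicate 3 and all replicates of 21 dpi. TP63, the master factor of stratified epithelium, and GRHL2 differed by -0.33 and -0.77 at 21 dpi and did not pass the test (adjusted p = 0.604 and 0.204). At 2 dpi 2 of the 21 rose and 0 fell (4 and 1 at an unadjusted p under 0.05), with a median of 0.16, beside 5.42% and 3.86% of all probe sets. TFAP2A, an early epidermal factor, rose by 1.43 (SE 0.26, adjusted p = 0.00814). TFAP2A kept that call without any single array and lost it with the mean of skeletal muscle markers as a covariate (adjusted p = 0.196). The other was ZNF750, higher by 0.73 (limma, adjusted p = 0.0453), a call lost without any 1 of 9 arrays (adjusted p up to 0.152). At 14 dpi 1 of the 21 was called higher and 0 lower (1 and 2 at an unadjusted p under 0.05), with a median of -0.04, beside 4.56% and 2.56% of all probe sets.

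**Figure D3:**
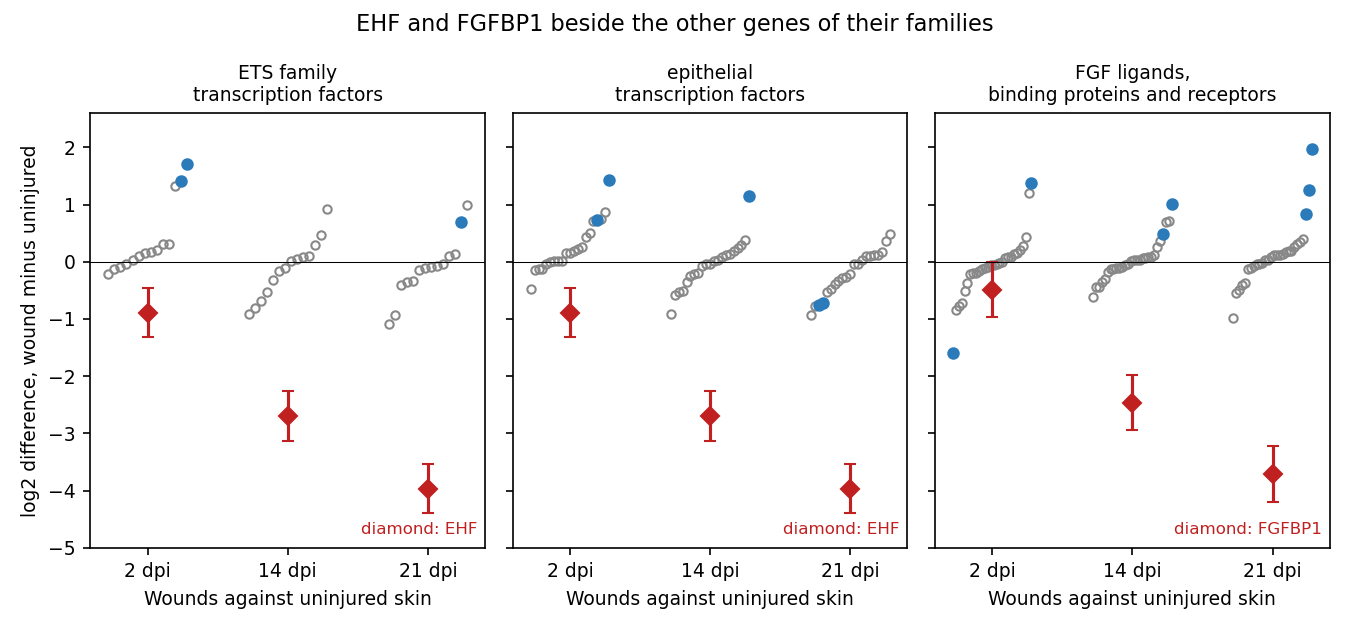
Log2 differences of wounds from uninjured skin at 2, 14 and 21 dpi for ETS family factors, epithelial transcription factors, and FGF ligands, binding proteins and receptors. Circles are single genes ordered by value (filled blue, limma adjusted p under 0.05), and red diamonds with SE bars are EHF or FGFBP1. EHF was chosen on its low values at 14 and 21 dpi and FGFBP1 on its low values at 21 dpi. At 21 dpi the lowest other ETS gene is ETS2 at -1.08 and the lowest other FGF gene SDC4 at -0.99.

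FGFBP1 was compared with the ligands, carriers, co-receptors and receptors it works among. Of 49 such genes besides FGFBP1, 28 were measured, and at 21 dpi 3 rose and 0 fell (3 and 3 at an unadjusted p under 0.05), with a median of 0.10, beside 6.62% of all probe sets called higher and 5.99% lower. Its own relatives FGFBP2 and FGFBP3 differed by -0.04 (SE 0.13, adjusted p = 0.883) and -0.49 (SE 0.19, adjusted p = 0.127). Both had uninjured means near or at the lower quartile of the arrays, 4.42 and 4.07, which leaves little room for a lower signal. Among the ligands FGF2, which FGFBP1 binds in mammals, averaged 6.42 at 21 dpi and 5.17 in uninjured skin, a rise of 1.25 (SE 0.33, adjusted p = 0.0323). This call was lost without any 1 of the uninjured arrays or without 21 dpi replicate 1 or 3 (adjusted p up to 0.106). FGF2 thus had its higher mean where FGFBP1 had its lowest.

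Of the proteoglycans that hold FGFs, HSPG2 (perlecan) rose by 1.98 at 21 dpi (SE 0.30, adjusted p = 0.00354) and SDC2 (syndecan 2) by 0.83 (SE 0.16, adjusted p = 0.00841), and both calls held without any single array. At 2 dpi SDC2 was higher by 1.37 (adjusted p = 7.63e-04) and HSPG2 lower by 1.60 (adjusted p = 0.0099), the only 2 of the 28 called (2 up and 5 down before adjustment, at p under 0.05), with a median of -0.05. Over all probe sets 5.42% were called higher and 3.86% lower at 2 dpi, so 1 in each direction is near that share. The call of HSPG2 at 2 dpi was lost with the junction or muscle mean as a covariate (adjusted p up to 0.145). At 14 dpi SDC2 and SDC3 were called higher and 0 lower (4 and 1 at an unadjusted p under 0.05), with a median of 0.01, beside 4.56% and 2.56% of all probe sets. SDC2 was higher by 1.00 (adjusted p = 0.00536, or 0.0695 with only the compared groups in the fit), and SDC3 by 0.49 (adjusted p = 0.0345), a call lost without uninjured replicate 1 or 2, 14 dpi replicate 2 or 3, or 21 dpi replicate 3 (adjusted p up to 0.121). Among the receptors, FGFR1 differed by 0.40 and FGFR2 by -0.37 at 21 dpi, neither past the test (adjusted p = 0.495 and 0.262).

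Genes that relay the FGF signal or are switched on by it were counted as well. Of 23 measured, 4 fell and 0 rose at 21 dpi (6 and 1 at an unadjusted p under 0.05), with a median of 0.02, beside 5.99% lower and 6.62% higher over all probe sets. They were EGR1 and MYC, immediate early transcription factors, DUSP5, a phosphatase that is switched on by ERK and dampens it, and CCND1, a cyclin. EGR1 differed by -2.71 (SE 0.64, adjusted p = 0.0209), DUSP5 by -1.82 (SE 0.41, adjusted p = 0.018), MYC by -0.80 (SE 0.17, adjusted p = 0.0133) and CCND1 by -0.58 (SE 0.12, adjusted p = 0.0118). These genes also answer to many other signals. The call of EGR1 was lost without uninjured replicate 1 or 3 or any 21 dpi array (adjusted p up to 0.0709), that of DUSP5 without uninjured replicate 1 or 21 dpi replicate 1 or 3 (up to 0.0628), and that of MYC without uninjured replicate 2 or 21 dpi replicate 3 (up to 0.0569). DUSP5 had r = 0.85 with FGFBP1 and 0.84 with EHF over the 12 arrays, part of which is built in by the choice of the 2 genes. At 2 dpi 3 of the 23 were called higher and 2 lower (4 and 3 at an unadjusted p under 0.05), beside 5.42% and 3.86% of all probe sets. The 3 higher were RRAS, by 1.27 (limma, adjusted p = 0.00946), GAB1, by 1.05 (2.42e-04), and FRS2, by 0.44 (0.0177). GAB1 kept its call under every alternative, while the adjusted p of RRAS and FRS2 rose to 0.212 and 0.183. The 2 lower were MYC, by 0.94 (limma, adjusted p = 0.00812), and CCND1, by 0.46 (0.0352). Over all alternatives their adjusted p rose to 0.185 and 0.426. At 14 dpi 0 were called higher and 5 lower (3 and 6), beside 4.56% and 2.56%.

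Genes that mark epithelial cells were counted in the same arrays. Of 35 junction genes, 0 were called higher and 1 lower at 21 dpi (3 and 9 at an unadjusted p under 0.05), with a median of -0.04. The adjusted counts of 0 and 1 are below the 6.62% higher and 5.99% lower over all probe sets. The share of all probe sets at an unadjusted p under 0.05 was not counted. The unadjusted counts, in this list and the others, therefore have no such share beside them and are a description only. The gene called was CLDN7, a claudin of tight junctions, lower by 0.55 (SE 0.15, adjusted p = 0.038). Its call was lost without uninjured replicate 1 or 2, 2 dpi replicate 2 or any array of 21 dpi (adjusted p up to 0.137). CDH1 differed by -0.61 (SE 0.23, adjusted p = 0.113) and EPCAM by -0.21 (SE 0.13, adjusted p = 0.342), both without passing the test. At 2 dpi 8 of the 35 were called higher and 0 lower (19 and 0 at an unadjusted p under 0.05), with a median of 0.47. Over all probe sets 5.42% were called higher and 3.86% lower at 2 dpi. At 14 dpi 3 were called higher and 0 lower (8 and 2), beside 4.56% and 2.56%. For each array the mean of the junction genes, centred on the 12 arrays, lay between -0.16 and 0.00 in uninjured skin, 0.14 and 0.44 at 2 dpi, -0.33 and 0.15 at 14 dpi, and -0.41 and -0.03 at 21 dpi.

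With this junction mean subtracted, EHF averaged 9.46 in uninjured skin, 8.14 at 2 dpi, 6.69 at 14 dpi and 5.61 at 21 dpi. FGFBP1 averaged 11.63, 10.71, 9.09 and 8.04 in the same order of groups. With the junction mean as a covariate in the model, the difference at 21 dpi was -3.95 for EHF and -3.56 for FGFBP1, against -3.96 and -3.71 without it. The slope of such a covariate rests on deviations within groups only. The junction mean averaged -0.10 in uninjured skin and -0.21 at 21 dpi, so this covariate could move the differences at 21 dpi little. The part of epithelial content in them was not tested. At 2 dpi the junction covariate took the difference of FGFBP1 to -1.05, against -0.49 without it. It took the fall of FGFBP1 between 2 and 14 dpi to -1.51 and ended its call (adjusted p = 0.233). Over the 12 arrays the junction mean had r = 0.37 with EHF and 0.49 with FGFBP1. After group means were subtracted, r was 0.04 for EHF and 0.37 for FGFBP1.

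Other epithelial lists were counted as well. Of 14 basal keratinocyte markers, 2 rose and 0 fell at 21 dpi (2 and 2 at an unadjusted p under 0.05), with a median of -0.15, beside 6.62% and 5.99% over all probe sets. COL7A1, the anchoring fibril collagen beneath the epidermis, was higher by 1.85 (SE 0.31, adjusted p = 0.00541), and DST, a linker of hemidesmosomes, by 1.70 (SE 0.30, adjusted p = 0.00676). The lowest of the 14 at 21 dpi was ITGA6 at -1.04, which was not called. At 2 dpi 3 of the 14 were called higher and 1 lower (5 and 1 at an unadjusted p under 0.05), with a median of 0.42. Over all probe sets 5.42% were called higher and 3.86% lower at 2 dpi. The 3 were COL7A1, COL17A1 and LAMB3, higher by 1.13, 1.05 and 0.65 (limma, adjusted p up to 0.531, 0.497 and 0.244 over all alternatives). The 1 was DST, lower by 2.05 (limma, adjusted p = 0.00307, up to 0.0513 over all alternatives). The mean of the 14 markers per array had r = 0.06 with EHF and 0.24 with FGFBP1. Only 7 of 54 suprabasal and cornified layer genes were measured, with 1 called higher and 0 lower at 21 dpi (1 and 2 at an unadjusted p under 0.05), beside the same 6.62% and 5.99%. The 1 was CRABP2, a retinoic acid carrier, higher by 1.02 (SE 0.29, adjusted p = 0.0447). That call was lost without any 1 of 9 arrays: uninjured replicates 1 and 2, 2 dpi replicate 2 and every array of 14 and 21 dpi (adjusted p up to 0.152). TGM1, the transglutaminase of the cornified envelope, had a difference of -1.68 (SE 0.59, limma adjusted p = 0.0947), the lowest of these 7. Its r with EHF was 0.75, part of which is built in by the choice of EHF. Of 12 gland, mucous and ionocyte genes, 1 was called higher and 1 lower at 21 dpi (3 and 2 at an unadjusted p under 0.05), beside the same 6.62% and 5.99%. SCNN1B, a sodium channel subunit, was higher by 1.78 (SE 0.30, adjusted p = 0.00547) and SLC4A4, a bicarbonate transporter, lower by 1.29 (SE 0.26, adjusted p = 0.0117). EHF and FGFBP1 are named for epithelium from other species, and these arrays do not show which cells of the biopsy held their RNA.

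Lists of other cells and of cell division moved across the same groups. Of 32 cell cycle genes, 19 were lower and 0 higher at 21 dpi (28 and 0 at an unadjusted p under 0.05), with a median of -0.95, beside 5.99% lower and 6.62% higher over all probe sets. Their centred mean lay between 0.51 and 0.63 in uninjured skin, -0.27 and 0.30 at 2 dpi, -0.53 and 0.22 at 14 dpi, and -0.50 and -0.38 at 21 dpi. Cell cycle genes thus shared with EHF and FGFBP1 a high level in uninjured skin and a low one at 21 dpi, with r = 0.83 for EHF and 0.89 for FGFBP1. As both genes were chosen for a low signal at 21 dpi, part of such an r is built in. This holds for any gene or list that differed at 21 dpi. After group means were subtracted, r was 0.21 for EHF and 0.77 for FGFBP1. The count of 19 ranged from 7 to 24 with 1 array left out. At 2 dpi 7 of the 32 were lower and 0 higher (16 and 0 at an unadjusted p under 0.05), beside 3.86% lower and 5.42% higher over all probe sets.

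Fibroblast and matrix markers took another course. Of 25 measured, 12 were higher and 0 lower at 21 dpi (14 and 0 at an unadjusted p under 0.05), beside 6.62% and 5.99% over all probe sets. At 2 dpi 12 were lower and 0 higher (16 and 2), beside 3.86% and 5.42%. The centred mean lay between -0.15 and 0.19 in uninjured skin, -2.47 and -1.32 at 2 dpi, 0.32 and 1.03 at 14 dpi, and 1.24 and 1.55 at 21 dpi. Over the 12 arrays this mean had r = -0.70 with EHF and with FGFBP1, and after group means were subtracted r was -0.75 for EHF and -0.09 for FGFBP1. At 2 dpi the array with the highest EHF, replicate 3, had the lowest fibroblast mean. At 14 dpi the array with the lowest EHF, replicate 2, had the highest. The other groups did not share this order. At 21 dpi replicate 1 had both the highest EHF and the highest fibroblast mean, and in uninjured skin replicate 3 had the lowest of both. The macrophage mean had r = -0.65 with EHF and -0.60 with FGFBP1, and the erythrocyte mean -0.72 and -0.64. Of 19 macrophage and monocyte markers, 12 were higher and 0 lower at 21 dpi (13 and 1, beside the same 6.62% and 5.99%), and their mean lay between 0.02 and 0.23 at 21 dpi and between -0.71 and -0.56 in uninjured skin. Skeletal muscle varied widely within groups, from 0.31 to 1.70 at 21 dpi and from -0.61 to 1.84 in uninjured skin. With the muscle mean as a covariate EHF differed by -3.96 and FGFBP1 by -3.71 at 21 dpi. The muscle mean averaged 1.00 in uninjured skin and 1.02 at 21 dpi, so this covariate could move those differences little. The part of epithelial cells, muscle, fibroblasts, macrophages, blood and dividing cells in the low values of EHF and FGFBP1 was not tested.

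**Figure D4:**
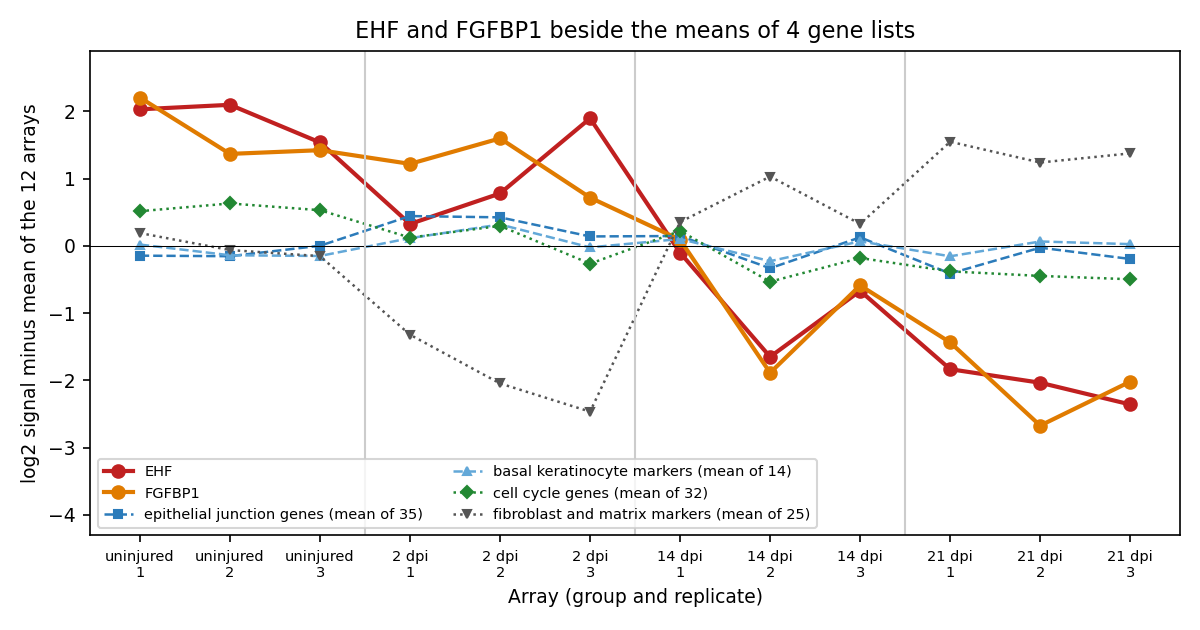
Log2 signal of EHF and FGFBP1 on each array minus its mean over the 12 arrays, with the centred means of 4 gene lists (n genes in the legend). EHF and FGFBP1, which were chosen on their low values at 21 dpi (EHF also at 14 dpi), span over 4 log2 units. Junction and basal keratinocyte means stay between -0.41 and 0.44, and the fibroblast mean runs from -2.47 at 2 dpi to 1.55 at 21 dpi. A mean over many genes varies less than single genes. Against uninjured skin, single junction genes differed by -1.24 to 1.39 and single basal markers by -2.05 to 1.91.

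The genes next to EHF and FGFBP1 in the RefSeq annotation of the axolotl genome (assembly UKY_AmexF1_1) were counted at 21 dpi. Among the 10 protein-coding genes on each side of EHF, 11 of 20 were measured, and 1 was called lower and 3 higher, beside 5.99% and 6.62% of all probe sets. PAMR1, at 6 places from EHF, was higher by 3.60 (SE 0.21, adjusted p = 1.89e-05), and PDHX, at 2 places, lower by 0.36 (SE 0.10, adjusted p = 0.0324). The gene adjacent to EHF that was measured, APIP, differed by 0.09 (SE 0.13, adjusted p = 0.751). Around FGFBP1, 14 of 20 were measured, with 0 lower and 1 higher. The neighbour FGFBP2 is the relative whose low signal is given above.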

How the data were processed

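RNA from axolotl skin biopsies had been hybridised to 12 one-colour Affymetrix arrays of axolotl transcripts. The authors deposited log2 values, background corrected, normalised and summarised per probe set by RMA, and these were used as deposited. The labels name Affymetrix Expression Console and the paper the Bioconductor affy package, with versions not given in the sources used here. Raw intensities were not used here.

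Of 20080 probe sets, 45 controls were left out. The other 20035 entered a linear model of 4 group means (limma 3.58.1 in R 4.3.3, functions lmFit and eBayes, 8 residual and 2.43 prior degrees of freedom), with two-sided p-values adjusted by Benjamini and Hochberg over all probe sets and a threshold of 0.05. No filter on low signal was applied. Tables were made with Python 3.11.15 and pandas 2.3.3, and the fit was tested on simulated data. Symbols came from the array's annotation, with 9084 probe sets unnamed. A gene was represented by its probe set with the highest mean.

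The members, gene lists and tests were chosen with earlier results of these data known. EHF and FGFBP1 are left out of the list counts. Genes named from a list were taken from the 4 with the smallest adjusted p at 21 dpi, not all of which are named, with all called ETS genes and FGF ligands, carriers and receptors, and for each member the 10 with the highest Pearson's r. TFAP2A, ZNF750, TP63, FGFBP2, the FGF receptors, CDH1, EPCAM, ITGA6, COL17A1, LAMB3, RRAS, GAB1, FRS2, PRG4, SQLE, PHLDA2, EREG and PTGES were chosen after their values were seen. An array's list mean is the mean over genes of the log2 value minus the gene's mean over the arrays. Lists of neutrophil, endothelial, erythrocyte, pigment, and nerve cells were also counted: at 21 dpi 0 of 3, 0 of 16, 2 of 6, 1 of 8 and 1 of 14 were called higher and 0, 0, 0, 1 and 0 lower (limma; at an unadjusted p under 0.05, 1, 1, 5, 1 and 2 higher and 0, 0, 0, 2 and 1 lower). Over all probe sets 6.62% were called higher and 5.99% lower at 21 dpi.

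Alternatives were quantile normalisation, subtraction of array medians, omission of probe sets below the 25th percentile of mean signal (both members stayed in), array weights, an intensity trend in eBayes, the compared groups fitted alone, the replicate number as a block, and each array left out in turn. The number of arrays limits the precision.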

Additional observations from a re-analysis of the deposited data

How the results depend on the processing

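The differences of EHF and FGFBP1 from uninjured skin at 14 and 21 dpi kept their direction under every alternative run. With 1 array left out, EHF ranged from -3.05 to -2.27 at 14 dpi and from -4.14 to -3.82 at 21 dpi, and FGFBP1 from -2.90 to -1.91 and from -4.01 to -3.39. At 2 dpi they ranged from -1.34 to -0.55 (EHF) and from -0.70 to -0.22 (FGFBP1), and the covariates took EHF to -1.49 (muscle) and FGFBP1 to -1.05 (junction). At 14 dpi against 2 dpi EHF ranged from -2.16 to -1.36 and FGFBP1 from -2.42 to -1.43, and at 21 dpi against 14 dpi EHF from -1.69 to -0.92 and FGFBP1 from -1.79 to -0.80. With array weights EHF at 2 dpi was called (-1.16). FGFBP1 at 14 dpi against 2 dpi was not called with only the compared groups in the fit (-1.97, adjusted p = 0.106), nor with the junction mean (-1.51, 0.233) or the muscle mean (-1.92, 0.102) as covariate, 2 alternatives chosen after seeing the data. The cause was not tested.

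Counts of called probe sets were less stable. They were 1859, 1427 and 2528 at 2, 14 and 21 dpi against uninjured skin and 1510 at 14 dpi against 2 dpi. With 1 array left out these ranged from 921 to 2725, 701 to 2171, 1151 to 2948 and 777 to 1745. Array weights gave 3451, 3123 and 6703 against uninjured skin. The compared groups alone gave 961 and 324 at 2 and 14 dpi, and 589 at 14 dpi against 2 dpi. The junction covariate gave 942, 2251 and 667 in the same order, and the muscle covariate 371 at 2 dpi and 813 at 14 dpi against 2 dpi.

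List counts at 21 dpi (either direction) rose with array weights to 7 epithelial factors, 5 ETS, 5 FGF, 9 FGF relay, 5 basal, 3 suprabasal, 15 junction, 5 gland and 30 cell cycle genes. With the replicate block they were 1 epithelial factor, 0 suprabasal and 0 junction genes. Junction genes numbered 2 after quantile normalisation, without low signals or with the muscle covariate, 3 with the compared groups only and 7 with the junction covariate. ETS genes numbered 2 with the compared groups only and suprabasal genes 2 with the muscle covariate. At 2 dpi junction genes numbered 17 with array weights, 3 with the compared groups only, 4 with the junction and 1 with the muscle covariate, and cell cycle genes 11, 0 with the compared groups only and 0 with the muscle covariate. With 1 array left out, counts at 21 dpi ranged from 0 to 3 (epithelial factors), 0 to 2 (ETS), 2 to 3 (FGF), 1 to 5 (FGF relay), 2 to 3 (basal), 0 to 2 (suprabasal), 0 to 6 (junction), 2 to 4 (gland), 7 to 24 (cell cycle), 10 to 14 (fibroblast) and 8 to 12 (macrophage), and at 2 dpi from 3 to 10 (junction) and 3 to 8 (cell cycle).

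Same-numbered arrays did not deviate together (18 pairs, r from -0.65 to 0.48), and the numbers were not taken as pairs. This check cannot show whether animals recurred between groups. Replicate numbers need not be animal numbers, and deviations from a mean of so few arrays depend on each other and on tissue content such as muscle. With the replicate block FGFBP1 at 14 dpi against 2 dpi kept its call (-1.97, limma adjusted p = 0.0262). The calls of ETS2, COL7A1 and COL17A1 at 2 dpi, SDC3 at 14 dpi and FGF2, KLF3, CLDN7 and CRABP2 at 21 dpi were lost with that block. Of the named genes' values under single alternatives, 871 kept their side of the threshold, 282 did not and 0 turned. Averaging the probe sets of a gene gave no alternative, since EHF and FGFBP1 have 1 each.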
